A study of Mus musculus with 27 samples.

Results

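Of the 56691 genes counted in mouse stomach organoids, 9 genes of the Hedgehog pathway are described here. They are the ligands Shh and Ihh, the receptor Ptch1, the decoy receptor Hhip, the signal transducer Smo, its partners Evc and Evc2, and the transcription factors Gli2 and Gli3. They were chosen by symbol, and partly by measured values. Shh had no counts in Mist1- organoids, and Evc was present in wild-type organoids at passage 15. Comparisons of those groups are therefore given as values without a test. In all, 6 of the 9 genes passed the filter on low counts, which kept 15115 genes. Gli2, Gli3 and Hhip did not pass.

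The RNA came from 21 libraries in 7 groups of 3. Organoids labelled Mist1+ were formed from Mist1Cre/ERT2;RFPLSL mice (labelled WT and called wild type here) and from Gpx4F/F;Mist1Cre/ERT2;RFPLSL mice (labelled Gpx4 KO). Each genotype was sampled at passages 5, 10 and 15. Organoids labelled Mist1-, also labelled WT, were sampled at passage 5 only. As far as the labels say, the Mist1 promoter drives an inducible Cre in every group, and Cre turns on a red fluorescent protein (RFP) by which cells of adult stomach were sorted. The floxed Gpx4 alleles are recombined in cells in which that Cre is active. Cultures were kept in Matrigel in a proliferating medium. The sources used here do not give how Cre was induced, how Mist1- cells were gated, the age of the organoid donors, or whether the 3 libraries of a group came from separate mice or cultures. The p-values thus measure the spread between these libraries, which may be technical.

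Hedgehog ligands are secreted proteins that bind Ptch1. Unbound Ptch1 holds Smo inactive, and once the ligand binds, Smo enters the primary cilium, where the Evc and Evc2 complex passes its signal on to the Gli transcription factors. In the stomach the epithelium makes the ligands, and fibroblasts and smooth muscle beneath it are the main responding cells. Ptch1, Hhip and Gli1 are themselves switched on by the pathway.

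Libraries held 13805585 to 19608956 counts in genes. The 3 libraries of wild-type passage 15 stood apart from one another, with a biological coefficient of variation of 21.1% against 1.89% to 3.07% in the other groups. That spread entered every p-value, since 1 model was fitted to all 21 libraries. Gpx4, the lipid peroxidase gene targeted by the floxed alleles, lay at 98.2 to 101 CPM in knockout and 124 to 134 CPM in wild-type libraries at passage 5. CPM is the count per 1000000 counts of the scaled library total. At passage 10 the ranges were 88.1 to 101 and 112 to 125 CPM, and at passage 15 they were 83.1 to 87.8 and 104 to 195 CPM. Its gene-level count cannot show whether exons were deleted. Epithelial markers summed to 6944 to 12318 CPM per library, whereas 14 fibroblast and smooth muscle markers summed to 1.05 to 5.68 CPM, and Dcn and Lum were at 0 in all libraries. Of 5 parietal markers Slc26a7 was at 0, Atp4b had 5 counts and Cblif 7 counts in all, Atp4a lay at 0.686 to 4.25 CPM and Kcnq1 at 51.1 to 114 CPM. Of 5 chief cell markers Pga5, Lipf and Chia1 were at 0, while Pgc lay at 1.89 to 32.0 CPM and Bhlha15, which encodes Mist1, at 2.06 to 12.8 CPM. In bulk RNA, fewer cells of a type and less RNA per cell cannot be told apart.

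The signal-receiving genes Smo, Evc and Evc2 were higher in knockout than in wild-type organoids at passages 5 and 10, so their promoters are shown first. Evc lies on chromosome 5 at 37289098 to 37336894 on the minus strand, and Evc2 next to it at 37338499 to 37425055 on the plus strand (GENCODE M21 annotation, GRCm38). The genes point away from each other, and their starts are 1605 bases apart. Smo lies on chromosome 6 at 29735503 to 29761365 on the plus strand. Each sequence is the RefSeq promoter window, from 250 bases before to 50 bases after the gene's start, on GRCm38.p6 and read on the gene's own strand. Capitals mark matches to a GC box, a CCAAT box or an RFX motif, on either strand.
Evc promoter, chr5:37336832-37337131, minus strand: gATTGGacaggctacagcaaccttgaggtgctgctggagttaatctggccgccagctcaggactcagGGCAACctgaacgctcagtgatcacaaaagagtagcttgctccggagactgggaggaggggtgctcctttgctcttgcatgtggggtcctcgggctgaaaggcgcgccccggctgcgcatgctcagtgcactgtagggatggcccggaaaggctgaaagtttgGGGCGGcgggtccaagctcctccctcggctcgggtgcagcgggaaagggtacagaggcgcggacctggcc
Evc2 promoter, chr5:37338228-37338527, plus strand: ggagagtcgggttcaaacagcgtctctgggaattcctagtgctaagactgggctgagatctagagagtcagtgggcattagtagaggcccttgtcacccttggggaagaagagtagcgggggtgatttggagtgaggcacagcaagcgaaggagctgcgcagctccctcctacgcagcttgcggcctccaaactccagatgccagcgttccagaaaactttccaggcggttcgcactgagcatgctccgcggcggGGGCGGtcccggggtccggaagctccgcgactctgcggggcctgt
Smo promoter, chr6:29735247-29735546, plus strand: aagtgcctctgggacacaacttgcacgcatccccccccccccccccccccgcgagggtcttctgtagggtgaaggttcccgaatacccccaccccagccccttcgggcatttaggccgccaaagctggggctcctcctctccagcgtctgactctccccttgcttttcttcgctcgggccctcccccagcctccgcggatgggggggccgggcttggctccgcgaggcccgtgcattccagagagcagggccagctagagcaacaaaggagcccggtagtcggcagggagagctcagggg

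The Evc window held 1 GC box (GGGCGG), 1 CCAAT box (CCAAT, here on the reverse strand) and 1 RFX motif (GTTGCC, also reversed), and these matches do not overlap. RFX factors are regulators of cilium genes. The Evc2 window held 1 GC box, and the Smo window held none of the motifs searched. Over 32851 mouse promoter windows of the same length, 35.7% held a GC box, 37.4% a CCAAT box, 12.5% an RFX motif, 13.6% a TATA box (TATAAA) and 0.253% the core of a GLI site (TGGGTGGTC). None of the 8 windows found for the 9 genes held the TATA or GLI letters, and Shh had no entry. These are matches of letters only. The 3 windows were rich in G and C, at 62.7% in Evc, 61.0% in Evc2 and 67.7% in Smo, against a median of 52.7% over all windows. They held 16, 19 and 17 CpG pairs, against a median of 7.

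Shh, the ligand Sonic hedgehog (ENSMUSG00000002633, chromosome 5, 28456815 to 28467256, minus strand), was 13.2-fold lower in knockout than in wild-type organoids at passage 5, and 6.61-fold lower at passage 10. At passage 5 the wild-type libraries read 3.80, 4.87 and 4.18 CPM, and the knockout libraries 0.443, 0.472 and 0.0604 CPM, from 8, 9 and 1 counts. At passage 10 the values were 4.44, 4.37 and 4.59 CPM in wild type and 0.513, 0.853 and 0.66 CPM in knockout. All wild-type libraries lay above all knockout libraries at both passages. The log2 fold change was -3.65 ± 0.33 (SE, adjusted p = 7.54e-08) at passage 5 and -2.72 ± 0.30 (adjusted p = 8.05e-07) at passage 10, by edgeR's quasi-likelihood test. The wild-type passage 5 libraries are also the control of the comparison with Mist1- organoids that chose Shh.

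Later passages were compared within each genotype. Between wild-type passages 5 and 10 the log2 difference was 0.06 ± 0.23 (adjusted p = 0.967). Knockout libraries at passage 15 read 1.09, 0.812 and 0.575 CPM, above the 3 at passage 5, a log2 fold change of 1.28 ± 0.41 (adjusted p = 0.0484). That call rests on single libraries. It was lost without knockout passage 5 replicate 1 (adjusted p = 0.0585) or 3 (log2 0.84, adjusted p = 0.198), without knockout passage 15 replicate 1 (adjusted p = 0.210) or 2 (adjusted p = 0.105), without the low-count filter (adjusted p = 0.0538) and with the replicate number as a block (adjusted p = 0.0601). The knockout step from passage 5 to 10 was 0.99 ± 0.44 (adjusted p = 0.228), although those libraries did not overlap. The interaction of genotype with passage was not called (0.93 ± 0.49, adjusted p = 0.385).

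In the groups that chose it, Shh had 0 counts in each Mist1- library, which allows up to 0.0583 CPM (3 counts over the group). The mean of wild-type passage 5, 4.28 ± 0.54 CPM (SD, n = 3), was 73.5 times that limit. The mean of knockout passage 5, 0.325 ± 0.23 CPM, was 5.58 times the limit, on 18 counts. Knockout passage 5 replicate 3 had 1 count (0.0604 CPM), while 3 counts in that library alone make 0.184 CPM of its unscaled total. Wild-type passage 15 libraries had 7, 5 and 7 counts (0.504, 0.295 and 0.431 CPM), a mean 10.9-fold below wild-type passage 10. From the highest, the order of means was wild-type passages 10 and 5, knockout passages 15 and 10, wild-type passage 15, knockout passage 5 and Mist1-. Libraries of wild-type passages 5 and 10 overlapped, as did those of knockout passages 15 and 10 and those of wild-type passage 15 and knockout passage 5. The lowest knockout passage 10 library (0.513 CPM) was just above the highest of wild-type passage 15 (0.504 CPM). Shh exons overlap an antisense gene, 9530036O11Rik, which had 58 counts over the 21 libraries against 525 for Shh. The strand setting of the counting is not given in the sources used here, so reads of that overlap cannot be assigned.

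Markers of surface mucous (pit) cells moved with Shh in part. The 6 pit markers Gkn1, Gkn2, Tff1, Muc5ac, Psca and Ctse all had counts, and they summed to 595 to 627 CPM in Mist1-, 4957 to 5102 in wild-type passage 5, 6814 to 7066 in wild-type passage 10 and 914 to 1540 in wild-type passage 15. In knockout they summed to 1444 to 1468 CPM at passage 5, 2342 to 2540 at passage 10 and 4714 to 4797 at passage 15. All 6 fell in knockout against wild type at passages 5 and 10, with median log2 changes of -1.94 and -1.35. Of all genes tested, 17.0% and 18.5% fell in these comparisons. Knockout passage 15 stood near wild-type passage 5 in the pit sum, and its Shh was 0.575 to 1.09 CPM against 3.80 to 4.87 CPM. The 6 markers in that sum did not move alike. In knockout against wild type at passage 5, log2 differences were -1.51 for Ctse, -2.37 for Psca and -1.52 for Muc5ac. From knockout passage 5 to 15 they were 0.33, 1.18 and 3.52. For Gkn1, Gkn2 and Tff1 they were -2.55, -2.35 and -1.32, then 2.29, 2.36 and 1.12. The part of pit cells in the Shh levels was not tested.

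**Figure D1:**
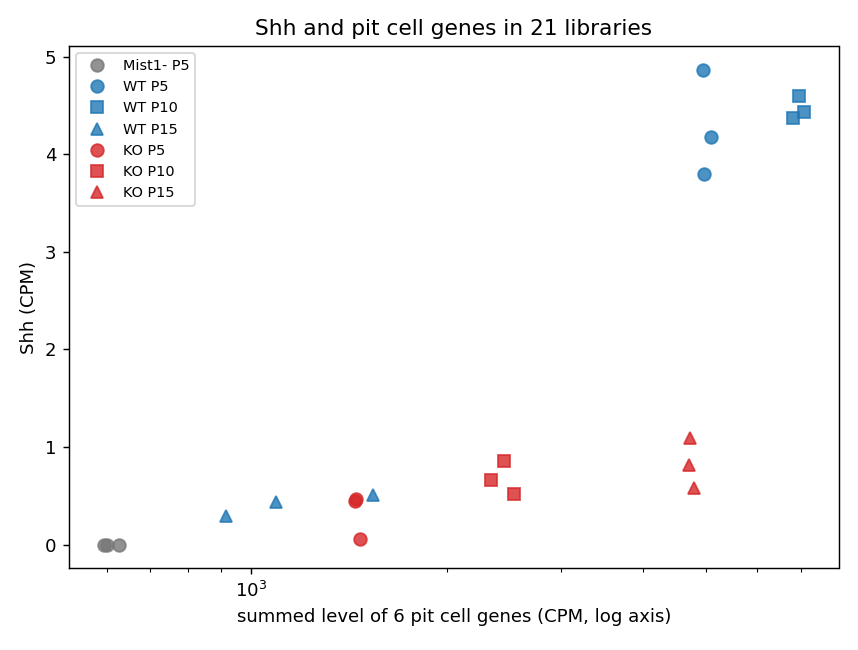
Shh level against the summed level of 6 pit cell markers in each of the 21 libraries, both in CPM, with 1 point per library and the 7 groups marked. Knockout passage 15 libraries (pit sum 4714 to 4797 CPM) lie near wild-type passage 5 on the pit axis and below it on the Shh axis. The 6 markers in the sum did not move alike.

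Ihh, Indian hedgehog (ENSMUSG00000006538, chromosome 1, 74945315 to 74951672, minus strand), parted between the genotypes from passage 5 to passage 10. At passage 5 the wild-type libraries read 9.09, 7.76 and 6.72 CPM and the knockout libraries 5.81, 6.86 and 8.63 CPM. The groups overlapped, with a log2 difference of -0.15 ± 0.16 (adjusted p = 0.540). By passage 10 wild type had reached 12.8, 13.6 and 13.1 CPM while knockout stood at 5.07, 4.2 and 4.45 CPM, so every wild-type library was above every knockout library. Ihh fell by 1.52 ± 0.16 on the log2 scale in knockout at passage 10 (adjusted p = 2.99e-07).

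The change from passage 5 to 10 differed between genotypes for Ihh, with an interaction of -1.37 ± 0.23 on the log2 scale (adjusted p = 0.000574). Of the genes tested, 5.93% were called for this interaction, 3.13% higher and 2.81% lower, and of the 6 Hedgehog genes tested Ihh alone was called. It rose by 0.74 ± 0.15 in wild type (adjusted p = 0.00416), and fell by 0.63 ± 0.17 in knockout (adjusted p = 0.0267). The knockout decrease was not called without passage 5 replicate 2 (log2 -0.65, adjusted p = 0.0607) or 3 (-0.47, 0.175), or without passage 10 replicate 2 (-0.58, 0.110) or 3 (-0.61, 0.103). Knockout libraries at passage 15 read 10.7, 10.3 and 11.0 CPM, all above those of passages 10 and 5. The rise from passage 10 to 15 was 1.22 ± 0.17 (adjusted p = 1.80e-05) and that from passage 5 to 15 was 0.59 ± 0.15 (adjusted p = 0.0124). The second was not called without knockout passage 5 replicate 1 (0.46, adjusted p = 0.0894) or 2 (0.57, adjusted p = 0.0521). As described values, Mist1- libraries read 4.67, 7.02 and 5.97 CPM, and wild-type passage 15 read 22.5, 16.5 and 21.8 CPM, the highest of all groups.

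The other genes of ligand making and release were a list of 7, of which 4 were tested. In knockout against wild type 0 rose and 2 fell at passage 5, with a list median of -0.44, and 0 rose and 1 fell at passage 10, with a median of -0.70. Of all genes 17.0% fell at passage 5 and 18.5% at passage 10. The passage 10 median rests on Hhat (log2 -1.30, 7 against 19 counts) and Disp2 (log2 -1.13, 8 against 19 counts), neither of them called, while Dhh was at -0.22 and Disp1 at -0.26. Medians of all tested genes lay between -0.01 and 0.01 in each comparison. Dhh, the Desert hedgehog ligand, fell by 0.64 ± 0.15 at passage 5 (adjusted p = 0.00178), from 7.93 ± 0.18 to 5.08 ± 0.19 CPM. Disp1, which releases the lipid-bearing ligand, fell by 0.23 at passage 5 (adjusted p = 0.0486) and by 0.26 at passage 10 (adjusted p = 0.0253). Hhat, the acyltransferase that adds palmitate to the ligands, fell by 2.14 ± 0.59 in knockout from passage 5 to 10 (adjusted p = 0.0262), on 36 and 7 counts over the groups. From passage 5 to 15 it fell by 2.44 (adjusted p = 0.00797). Dhh fell by 0.50 in knockout from passage 10 to 15 (adjusted p = 0.0290), where the libraries overlapped.

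**Figure D2:**
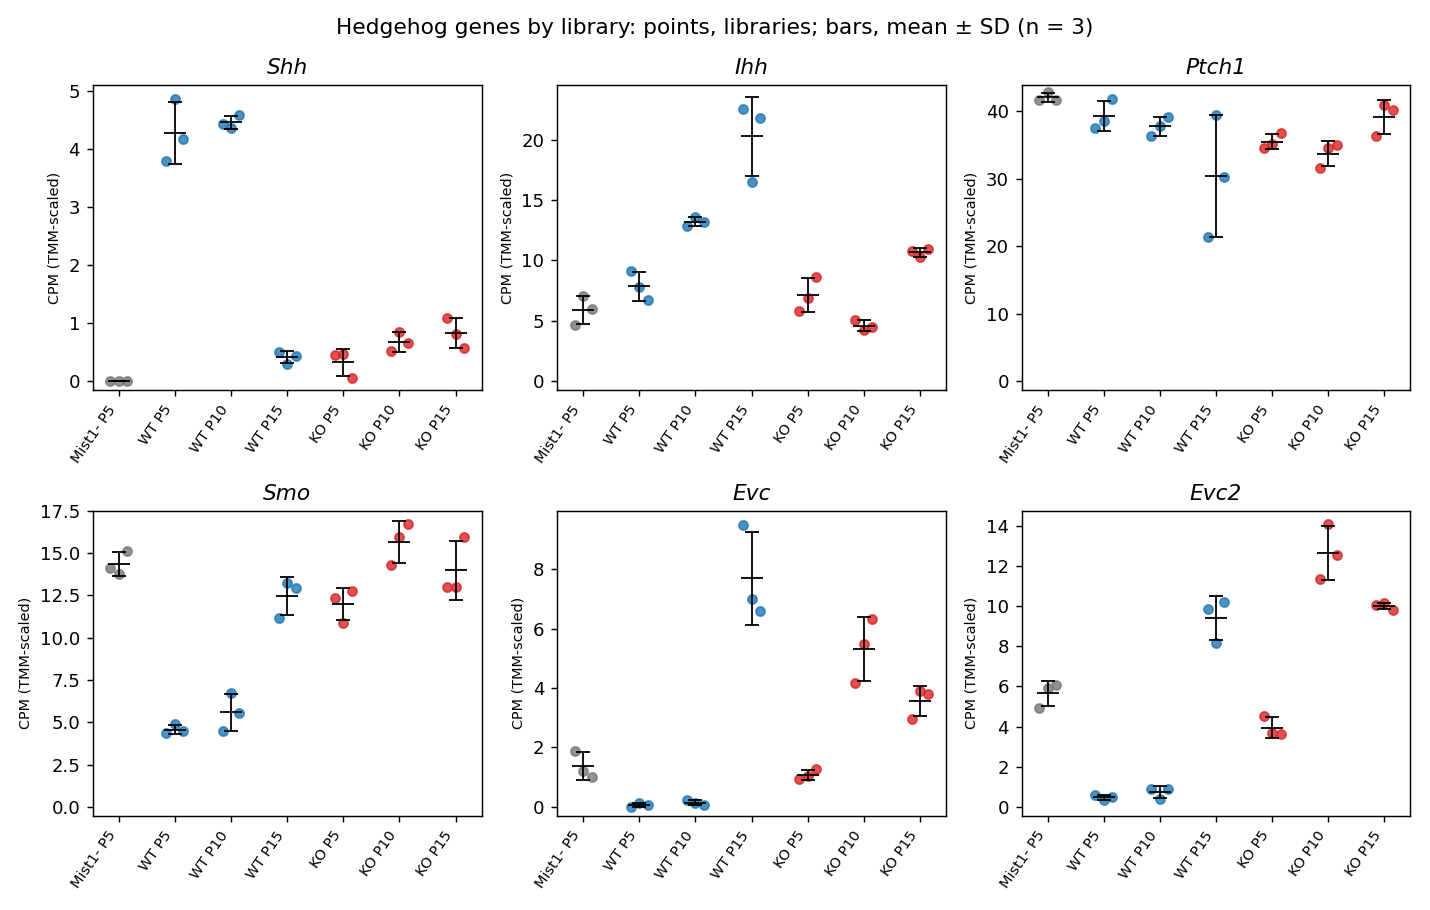
Level in CPM of the 6 Hedgehog genes that passed the low-count filter, 1 panel per gene and 1 point per library in the 7 groups, with bars for the mean ± SD (n = 3). Shh is high in wild-type passages 5 and 10, and Smo, Evc and Evc2 are low in the same 2 groups.

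Ptch1, the ligand's receptor and itself a target of the pathway (ENSMUSG00000021466, chromosome 13, 63508328 to 63573598, minus strand), changed least of the tested members between genotypes at passage 10. Passage 5 libraries read 37.5, 38.5 and 41.8 CPM in wild type, against 34.6, 35.2 and 36.7 CPM in knockout. Those of passage 10 read 36.4, 37.8 and 39.2 CPM in wild type, against 31.6, 34.5 and 35.0 CPM in knockout. The knockout libraries were below the wild-type ones at both passages, by log2 -0.15 ± 0.12 (adjusted p = 0.421) and -0.17 ± 0.13 (adjusted p = 0.333). Without the wild-type passage 15 group in the model the same differences were called, at -0.15 (adjusted p = 0.0348) and -0.17 (adjusted p = 0.0158). Knockout passage 15 read 36.3, 40.9 and 40.2 CPM, a log2 difference of 0.22 ± 0.13 from passage 10 (adjusted p = 0.270), which was called without that group (0.22, adjusted p = 0.00182). Described only, Mist1- libraries read 41.7, 42.8 and 41.7 CPM and wild-type passage 15 read 21.4, 39.4 and 30.3 CPM, the widest spread of any group for Ptch1.

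Hhip, a membrane protein that binds and sequesters ligands (ENSMUSG00000064325, chromosome 8, 79965851 to 80058006, minus strand), had 0 counts in all 21 libraries. That allows at most 0.0559 to 0.0690 CPM in a group, at 3 counts over the group. Among 6 other receptors and co-receptors only Cdon was tested, a co-receptor that helps Ptch1 bind the ligand, and it was not called in any of the 7 comparisons. Its level was 19.4 ± 1.0 CPM in wild type and 18.3 ± 1.0 CPM in knockout at passage 5. The co-receptors Boc and Gas1 had 1 count each over the 21 libraries.

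Smo (ENSMUSG00000001761), the membrane protein that starts the intracellular signal, was on average 2.63-fold higher in knockout than in wild type at passage 5 and 2.80-fold higher at passage 10. Its wild-type values were 4.34, 4.87 and 4.46 CPM at passage 5, then 4.5, 6.72 and 5.54 CPM at passage 10. The knockout values were 12.3, 10.9 and 12.7 CPM, then 14.3, 15.9 and 16.7 CPM. No wild-type library at passages 5 and 10 reached the lowest knockout library. Smo rose in knockout by 1.39 ± 0.14 at passage 5 (adjusted p = 8.03e-08) and by 1.49 ± 0.13 at passage 10 (adjusted p = 1.03e-08).

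Within knockout organoids Smo rose by 0.39 ± 0.12 from passage 5 to 10 (adjusted p = 0.0437). The call was lost without any 1 of knockout passage 5 replicates 1 (adjusted p = 0.0927), 2 (0.211) and 3 (0.0668) and passage 10 replicates 2 (0.125) and 3 (0.197), and without the low-count filter (0.0909). At passage 15 the libraries read 13.0, 13.0 and 16.0 CPM, which was not called against passage 10 (adjusted p = 0.384) or 5 (adjusted p = 0.260). The wild-type step from passage 5 to 10 was not called (0.29 ± 0.15, adjusted p = 0.383). As described values, Mist1- libraries read 14.1, 13.8 and 15.1 CPM, 3.15 times the wild-type passage 5 mean, and wild-type passage 15 read 11.2, 13.3 and 12.9 CPM, 2.23 times the passage 10 mean.

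Evc (ENSMUSG00000029122) and Evc2 (ENSMUSG00000050248) encode the membrane proteins mutated in Ellis-van Creveld syndrome, which sit together near the base of the cilium. Evc was nearly absent from wild-type organoids at passages 5 and 10, with 0, 2 and 1 counts and then 4, 2 and 1 counts. Knockout libraries had 17, 20 and 21 counts at passage 5 and 65, 77 and 115 at passage 10. Every knockout library was thus above every wild-type one at those passages. The ratio of knockout to wild type was 15.7 at passage 5, with a 95% counting interval of 5.10 to 78.1, and 39.1 at passage 10, with an interval of 18.7 to 98.3. The fitted log2 fold changes were 3.83 ± 0.61 (adjusted p = 4.71e-05) and 5.20 ± 0.38 (adjusted p = 1.17e-09). Evc was chosen on its presence at a later wild-type passage, possibly against its low level at wild-type passages 5 and 10. Those low libraries are the controls of these tests, so the p-values may not be independent of that choice.

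Evc2 was also higher in knockout, on more counts. In wild type it stood at 0.611, 0.353 and 0.48 CPM at passage 5, then at 0.899, 0.391 and 0.898 CPM at passage 10. In knockout it stood at 4.54, 3.67 and 3.62 CPM, then at 11.4, 14.1 and 12.5 CPM. The groups did not overlap at either passage. Evc2 rose by 3.01 ± 0.25 in knockout at passage 5 (adjusted p = 9.61e-09) and by 4.07 ± 0.19 at passage 10 (adjusted p = 1.38e-12).

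Both genes rose within knockout from passage 5 to 10. The change was 2.30 ± 0.26 for Evc (adjusted p = 3.23e-06) and 1.68 ± 0.15 for Evc2 (adjusted p = 6.74e-08). Passage 15 libraries, at 2.97, 3.88 and 3.79 CPM for Evc and 10.1, 10.1 and 9.83 CPM for Evc2, were still above passage 5, by 1.71 ± 0.27 (adjusted p = 0.000107) and 1.34 ± 0.15 (adjusted p = 9.60e-07). Against passage 10 they were lower by log2 -0.59 ± 0.22 (adjusted p = 0.0705) and -0.34 ± 0.13 (adjusted p = 0.0852). Those decreases were called when the wild-type passage 15 group was left out (adjusted p = 0.0210 and 0.0217), and for Evc also without knockout passage 10 replicate 1 (-0.73, adjusted p = 0.0431). Between wild-type passages 5 and 10 neither gene was called (Evc adjusted p = 0.773, Evc2 adjusted p = 0.484). The interaction was not called either, at 1.37 ± 1.22 for Evc (adjusted p = 0.693) and 1.06 ± 0.40 for Evc2 (adjusted p = 0.154).

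In the groups used to choose the genes, Evc had 32, 21 and 17 counts in Mist1- libraries, 19.7 times wild-type passage 5, whose 3 counts leave that ratio imprecise (6.48 to 97.9, counting error only, not a test). Wild-type passage 15 libraries had 132, 119 and 107 counts (9.5, 7.01 and 6.59 CPM), and they were the highest for Evc of the 7 groups. By pooled counts that was 55.3 times wild-type passage 10, whose 7 counts leave the ratio imprecise (26.6 to 139, counting error only, not a test). Evc2 read 4.91, 5.95 and 6.09 CPM in Mist1-, 11.7 times wild-type passage 5, and 9.86, 8.19 and 10.2 CPM in wild-type passage 15, 12.9 times passage 10. At passage 15 the mean of knockout over that of wild type was 0.461 for Evc, 1.06 for Evc2, 1.12 for Smo, 1.29 for Ptch1, 0.526 for Ihh and 2.02 for Shh.

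Markers of mucous neck cells also differed between these groups. The 4 markers Muc6, Tff2, Aqp5 and Cftr had counts in every group, and their sum was 75.8 to 81.5 CPM in wild-type passage 5, 59.2 to 60.5 in wild-type passage 10 and 127 to 149 in wild-type passage 15. It was 145 to 146 CPM in knockout passage 5, 99.3 to 105 in knockout passage 10, 188 to 196 in knockout passage 15 and 514 to 539 in Mist1-. In knockout against wild type Tff2 and Aqp5 rose and Cftr fell at passages 5 and 10, and Muc6 did not pass the filter. From knockout passage 5 to 10 the sum was lower, and Smo, Evc and Evc2 rose. Within the sum, Tff2 fell (log2 -1.83, adjusted p = 1.64e-07) and Aqp5 rose (log2 1.02, adjusted p = 1.24e-05). Cftr was not called in that step (log2 -0.06, adjusted p = 0.934). The part of neck cells in the levels of Smo, Evc and Evc2 was not tested.

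**Figure D3:**
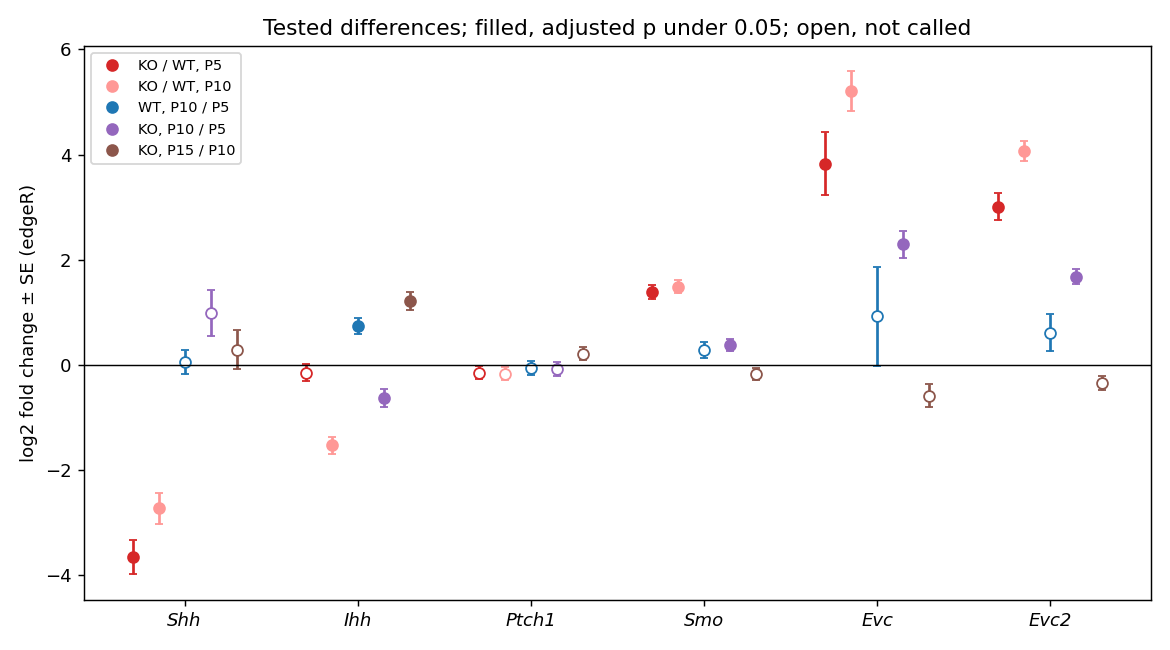
Log2 fold change with its SE (edgeR) for the 6 tested Hedgehog genes in 5 of the comparisons, with filled points for an adjusted p under 0.05 and open points for the rest. Evc, Evc2 and Smo lie above 0 and Shh below 0 in knockout against wild type at passages 5 and 10, and Ptch1 lies near 0 throughout.

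Counted together, 4 of the 6 tested members were called in knockout against wild type at passage 5, 3 higher and 1 lower. Of all genes tested 30.1% were called there, 13.0% higher and 17.0% lower. At passage 10, 5 members were called, 3 higher and 2 lower, against 34.4% of all genes, 15.9% higher and 18.5% lower. In wild type from passage 5 to 10, 1 member was called higher and 0 lower, beside 4.88% of all genes, 2.04% higher and 2.84% lower. In knockout over the same step 3 were called higher and 1 lower, beside 7.61% of all genes, 3.89% higher and 3.72% lower. From passage 10 to 15, 1 was called higher and 0 lower, beside 18.0%, 8.34% higher and 9.63% lower. From passage 5 to 15, 4 were called higher and 0 lower, beside 13.0%, 5.77% higher and 7.20% lower. The comparisons share libraries, and the members were partly chosen on wild-type values. Those were passage 5 for Shh and possibly passages 5 and 10 for Evc, so these counts are not independent.

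The transcription factors at the end of the pathway were near or at 0. Gli2, the main activator (ENSMUSG00000048402, chromosome 1, 118834132 to 119053619, minus strand), had 0 counts in all 21 libraries, under the same limit as Hhip. Gli3, the main repressor (ENSMUSG00000021318, chromosome 13, 15463235 to 15730026, plus strand), had 4 counts in 3 libraries, 2 of them in wild-type passage 5 and 1 each in knockout passages 10 and 15. Gli1, which the active pathway switches on, had 3 counts in 2 libraries. No test was possible for these genes after the filter.

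Response genes of the pathway were a list of 12 that includes Ptch1 and Hhip, and 6 were tested. Foxl1 and Hhip were at 0 in every library, and the mesenchymal factors Foxf1 and Foxf2 had 4 and 24 counts over all. Knockout against wild type gave 0 that rose and 2 that fell at passage 5 (median -0.23), and 0 and 1 at passage 10 (median -0.26). Of all genes 17.0% and 18.5% fell in these comparisons, so 2 and 1 of 6 are near the background. Ccnd1, the cell cycle regulator cyclin D1, fell by 0.53 ± 0.080 at passage 5 (adjusted p = 2.81e-05) and by 0.30 at passage 10 (adjusted p = 0.00639). Its levels at passage 5 were 1064 ± 4.2 CPM in wild type and 736 ± 13 CPM in knockout. Bcl2, which blocks apoptosis, fell by 0.40 at passage 5 (adjusted p = 0.00407). Bmp4, a secreted growth factor, fell by 0.80 ± 0.21 in knockout from passage 5 to 10 (adjusted p = 0.0184) and by 0.96 from passage 5 to 15 (adjusted p = 0.00308). From passage 10 to 15 in knockout, 1 rose and 2 fell, where 8.34% of all genes rose and 9.63% fell. Bcl2 rose by 0.48 (adjusted p = 0.00145), Ccnd1 fell by 0.44 (adjusted p = 0.000463) and the cell cycle kinase gene Cdk6 fell by 0.32 (adjusted p = 0.0299). Many other pathways also act on Ccnd1, Bcl2 and Bmp4.

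Between the membrane and the Gli factors, a list of 16 signal transduction genes had 15 tested. At passage 5, 2 rose and 2 fell in knockout against wild type, and at passage 10, 2 rose and 1 fell, with medians of -0.02 and 0.03. Those counts did not exceed the 30.1% and 34.4% of all genes called. Sufu, which holds Gli proteins in the cytoplasm, rose by 0.57 ± 0.096 at passage 10 (adjusted p = 8.05e-05), from 16.4 ± 0.84 to 24.3 ± 0.68 CPM, and by 0.43 in knockout from passage 5 to 10 (adjusted p = 0.00477). Grk2, a kinase that acts on active Smo, rose by 0.15 at passage 5 (adjusted p = 0.0384) and by 0.29 at passage 10 (adjusted p = 0.000257). Csnk1a1, a casein kinase gene, fell by 0.21 at passage 5 (adjusted p = 0.00785). Mgrn1, a ubiquitin ligase that lowers Smo at the cell surface, fell by 0.22 at passage 10 (adjusted p = 0.00226). Prkacb, a catalytic subunit of protein kinase A, rose by 0.32 at passage 5 (adjusted p = 0.0274), and Spop, an adaptor for Gli breakdown, fell by 0.13 (adjusted p = 0.0316). From passage 10 to 15 in knockout Grk2 fell by 0.21 (adjusted p = 0.00902) and Mgrn1 rose by 0.19 (adjusted p = 0.0142).

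Smo, Evc and Evc2 act at the primary cilium, and all 20 genes of a list for cilium building and transport were tested. Between genotypes 1 rose and 4 fell in knockout at passage 5 (median -0.08), and 2 rose and 1 fell at passage 10 (median -0.02). The shares of all genes called were 30.1% and 34.4%, so the cilium genes were not called more often than genes at large. Tulp3, which carries receptors into the cilium, rose by 0.52 at passage 5 (adjusted p = 0.000797) and by 0.72 ± 0.11 at passage 10 (adjusted p = 2.16e-05). Tctn1 and Tctn2, of the ciliary gate, fell by 0.47 (adjusted p = 0.00272) and 0.49 (adjusted p = 0.00839) at passage 5. Ift122, a transport subunit, fell by 0.47 at passage 10 (adjusted p = 0.0118), where Cc2d2a rose by 0.49 (adjusted p = 0.0364) with overlapping libraries. In knockout 0 of the 20 were called from passage 5 to 10, where 7.61% of all genes were called, and 3 fell from passage 10 to 15, where 9.63% of all genes fell. Those were Bbs4, which fell by 0.60 (adjusted p = 0.00775), Mks1, which fell by 0.52 (adjusted p = 0.0214), and Ofd1, which fell by 0.24 (adjusted p = 0.0485). Motile ciliated cell markers summed to 5.19 to 12.2 CPM over libraries, most of it from Rsph1 (4.69 to 11.3 CPM). Tppp3 lay at 0.12 to 0.69 CPM, Foxj1 had 79 counts and Dnah5 1 count over all libraries, and Dynlrb2 was at 0.

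Genes were compared with one another on the deposited FPKM, fragments per kilobase of exon scaled to the library total. In wild-type passage 5, mean levels were 2.65 FPKM for Ptch1, 2.47 for Ihh, 1.45 for Shh, 0.777 for Smo, 0.08 for Evc2 and 0.01 for Evc. In knockout passage 10 they were 2.83 FPKM for Smo, 2.42 for Ptch1, 2.21 for Evc2, 1.53 for Ihh, 0.703 for Evc and 0.243 for Shh. The receiving gene Smo thus stood below Shh and Ihh in the first group and above both in the second. Those groups differ in genotype and in passage. Smo was below Ihh in knockout passage 5 (2.17 against 2.37 FPKM) and passage 15 (2.53 against 3.56 FPKM). It was also below Ihh in wild-type passages 10 (0.96 against 4.18 FPKM) and 15 (2.26 against 6.77 FPKM), and above it in Mist1- (2.55 against 1.93 FPKM).

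**Figure D4:**
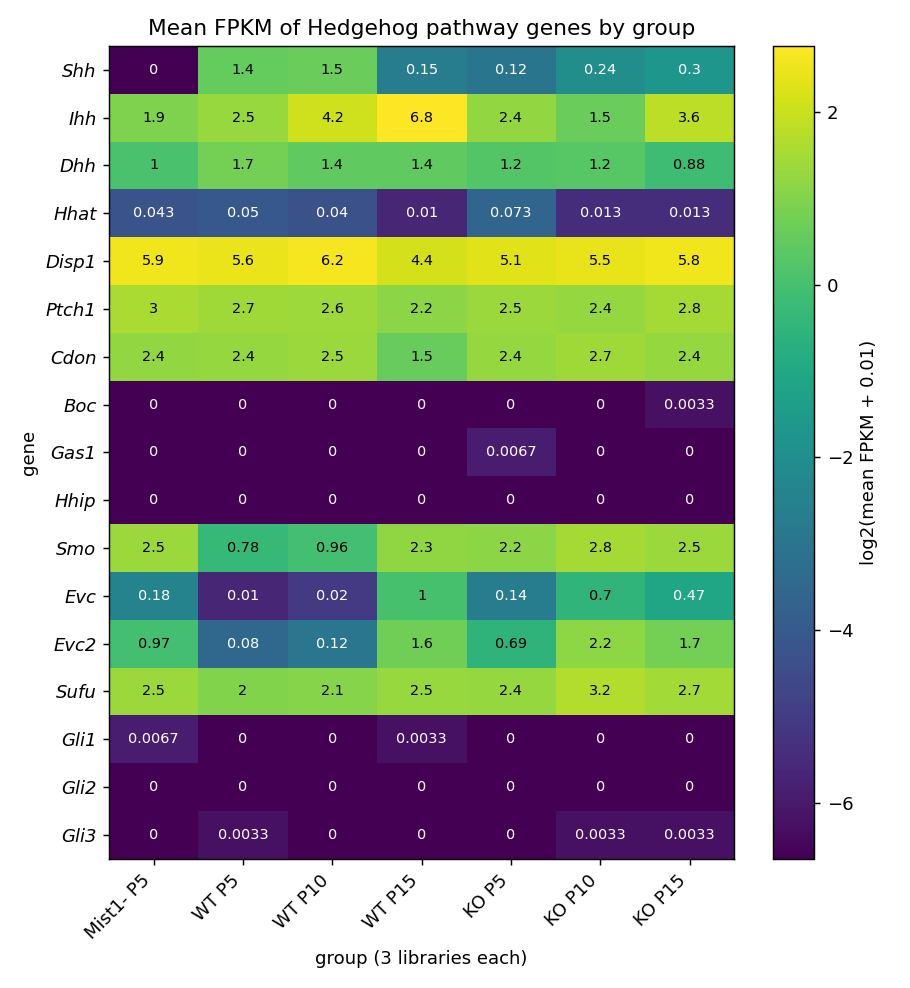
Mean deposited FPKM in the 7 groups (columns) of 17 genes (rows), the 9 members and 8 other genes of the pathway, ordered by role from ligand to transcription factor, with the mean printed in each cell and the colour on a log2 scale. Ptch1 is at 2.96 FPKM in Mist1- and 2.65 FPKM in wild-type passage 5, Shh is highest in wild-type passages 5 and 10, and Gli2, Gli3 and Hhip are at or near 0 in all groups.

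Across the 21 libraries the levels of Evc and Evc2 were close to one another in pattern (Pearson r = 0.94 of log2 CPM), as were Smo and Evc2 (0.93) and Smo and Evc (0.86), while Shh ran against Smo (-0.82). These are descriptions over 7 groups, in which libraries of a group share their source. By the same measure, the genes most like Shh were Ctse (0.97), itself one of the pit markers above, and Pklr (0.97). Those most like Ihh were Fut2 (0.92) and Wnt4 (0.90), and those most like Smo were Asrgl1 (0.95) and Gabrp (0.95). Evc was most like Tra2b (0.95) and Rcc1 (0.95), Evc2 most like Anp32e (0.96) and Clstn1 (0.96), and Ptch1 most like Mob1a (0.96) and Naip6 (0.95), a gene with close copies among which reads may be split.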

How the data were processed

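RNA was sequenced from 21 mouse organoid libraries in 7 groups of 3, grouped by the sample titles. Another 6 samples, sorted cells of 2 diet groups, are not analysed here. The deposited table gives raw read counts per gene, as the authors counted them, and FPKM computed by the authors. Each FPKM equalled count over exonic length and library total within 0.006 in 100% of values. Per the submitters' processing notes, the tools were cutadapt 1.9.1, HISAT2 2.2.1 and HTSeq 0.6.1, with GRCm38.p5. Of 52073 gene identifiers shared with GENCODE M21, only 1472 have the same coordinates, so gene positions come from GENCODE M21. Shh, for example, has the same span in both but lies at 28661813 to 28672254 by the deposited positions. Whether the deposited positions are on the named build was not tested.

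A negative binomial model was fitted to the counts with edgeR 4.0.16 under R 4.3.3, using filterByExpr (minimum count 10, minimum total 15), TMM scaling and a group-means model over all 21 libraries. The 15115 genes kept hold 99.91% of counts. Differences were tested by the robust quasi-likelihood F-test, two-sided, with Benjamini-Hochberg adjustment over all genes tested. Rose, fell and called mean an adjusted p under 0.05. SE is the log2 fold change over the square root of F. CPM is per 1000000 of the TMM-scaled total, and log2 CPM uses a prior count of 2. A group at 0 is given the limit of 3 counts over the group, and counting intervals are exact binomial at 95%. Limits and intervals cover counting error only. The code was tested on simulated data.

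The members and gene lists were chosen with earlier results of these data known. Every member is named. From each pathway list up to 3 called genes with the smallest adjusted p per comparison are named, most with their values, and 2 genes of these lists are not reported here. The 2 protein-coding genes most like each tested member are given by Pearson r. Alternatives were median-ratio scaling, no low-count filter, DESeq2 1.42.0, a replicate block, only the groups compared, no wild-type passage 15 and each library left out. Replicate numbers gave little sign of pairing libraries, with correlations of deviations between -0.031 and 0.027. In knockout against wild type at passage 10, however, 3 of 3 libraries correlated best with their own number. In the other comparisons 0 to 2 of 3 did.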

Additional observations from a re-analysis of the deposited data

Results flagged for a closer look

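Ihh was the single member whose response to passage differed between genotypes by a test of that difference. Its log2 change from passage 5 to 10 in knockout, minus that in wild type, was -1.37 ± 0.23 (edgeR interaction, adjusted p = 0.000574). All 3 wild-type libraries at passage 10 (12.8 to 13.6 CPM) were above the 3 at passage 5 (6.72 to 9.09 CPM). All 3 knockout libraries at passage 10 (4.2 to 5.07 CPM) were below the 3 at passage 5 (5.81 to 8.63 CPM). Leaving out 1 library at a time gave -1.50 to -1.22. The cause was not tested.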

How the results depend on the processing

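The knockout against wild type calls of Shh, Smo, Evc and Evc2 at passages 5 and 10, and that of Ihh at passage 10, kept their direction and stayed called under each alternative run. Over 42 member results, 536 alternative values gave 501 with the same call, 18 that lost it, 11 that gained it and 6 that changed sign. The losses stand beside their genes above, as do the gains without wild-type passage 15 and that of Evc without 1 library. With only the groups compared, gains were Ptch1 in knockout against wild type at passage 10 (-0.15, adjusted p = 0.0355), and in knockout passage 15 against 10 Ptch1 (0.23, adjusted p = 0.00197), Evc (-0.58, adjusted p = 0.00491) and Evc2 (-0.32, adjusted p = 0.0126), and Ptch1 in knockout passage 15 against 5 (0.14, adjusted p = 0.0420). Sign changes came from leaving out 1 library, in results near 0. Shh in wild type from passage 5 to 10 ranged from -0.0145 to 0.163, and the interaction ranged from -0.0676 to 0.0242 for Ptch1 and from -0.0347 to 0.241 for Smo. The number of genes called depended on the wild-type passage 15 group. With it, the counts were 4547 for knockout against wild type at passage 5, 738 for wild type passage 10 against 5, 1150, 2717 and 1960 for knockout passage 10 against 5, 15 against 10 and 15 against 5, and 897 for the interaction. Without that group in the fit they were 7095, 2766, 3330, 5502, 4492 and 3018, and with only the groups compared 7035, 2827, 3059, 5295, 4606 and 2951. For knockout against wild type at passage 10 the counts were 5204 with that group, 7794 without it and 7551 with only the groups compared. The cause was not tested. The replicate block, whose numbers gave little sign of pairing, gave 1888 calls for knockout passage 15 against 5, where the Shh change was 1.29 (adjusted p = 0.0601). Depth limits Gli2, Gli3 and Hhip, at 0 to 2 counts per library, and makes the wild-type Evc levels imprecise.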
